A study of Mus musculus with 4 samples.

Results

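The endothelium described here is a set of 75 single endothelial cells (EC) of the mouse aorta with the highest joint level of 7 genes, namely Cxcl1, Atp1b1, Dcdc2a, Tyro3, Plxdc2, Cd74 and Cxcl12. Of 991 deposited cells, 820 counted as EC because they had more than 1200 genes above 0 and at least 3 counts summed over Pecam1, Cdh5 and Vwf. For each EC the score was the mean over the 7 panel genes of ln(1 + count per 10000), and the 75 EC with the highest score are the members. The other 745 EC of the same libraries are the comparison group. Aortas were taken from root to iliac artery, digested, and sorted as CD31+ CD45- TO-PRO-3- cells into multi-well plates for SORT-seq, which counts transcripts of single cells from their 3' ends with molecular identifiers. There were 2 libraries labelled Jag1ECKO, from Jag1fl/fl Cdh5CreERT2/+ mice, in which Cre driven by the endothelial Cdh5 promoter deletes Jag1, and 2 labelled Jag1ECWT, from Jag1fl/fl Cdh5+/+ mice without Cre. By the study's methods the mice were C57BL/6J males of 1.5 to 3 months that received 2 mg tamoxifen per day for 5 days, controls included. Whether a library held 1 mouse or a pool is not given in the sources used here, and p-values therefore measure the spread between these libraries only.

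Below, values of the 4 libraries are always given in the order ECKO 1, ECKO 2, ECWT 1 and ECWT 2. The members numbered 16, 26, 14 and 19 of 199, 236, 140 and 245 EC. CPM stands for counts of a gene per 1000000 counts, summed over the cells of a group in 1 library. Members were deeper than the other EC in all 4 libraries, with median totals of 4665, 8351, 7057 and 5882 counts per member and 4124, 6125, 5249 and 5084 counts per other EC. Summed over cells, the members held 583734 counts, from 77564 to 262334 per library. Well barcodes recur between plates by design: 373 distinct barcodes occurred, 324 of them in more than 1 library.

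Arterial endothelium can present antigen and call in white blood cells when it is exposed to inflammatory signals. Cd74, the invariant chain, guides MHC class II molecules to the endosome and also serves at the cell surface as a receptor for the cytokine Mif. Interferon gamma induces class II genes through the activator Ciita, and also induces class I genes, guanylate-binding proteins and immunity-related GTPases. Cxcl1 attracts neutrophils and is a classic target of NF-kB, while Cxcl12 binds Cxcr4 and the scavenging receptor Ackr3. The other panel genes have unlike roles. Atp1b1 encodes the beta subunit of the sodium-potassium pump, Tyro3 a receptor tyrosine kinase for Gas6 and Pros1, Plxdc2 a membrane receptor for PEDF, and Dcdc2a a protein of the primary cilium that binds microtubules.

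The promoters below belong to a panel gene, Cxcl1, and to genes outside the panel that were higher in members, and are shown because textbook motifs of class II, NF-kB and interferon regulation occur in them. Each runs from 250 bases before to 50 bases after the start of transcription, 5′ to 3′ on the gene's strand (RefSeq, GRCm38.p6), with the motif in capitals. The motifs were searched on both strands as CTGATTGG for the Y box of class II promoters, GGG and TTTCC with any 2 bases between them for NF-kB, and GAAA repeated after any 2 bases for interferon-responsive elements. Among 32851 promoters of that length, 4.1% hold the Y box, 1.63% the NF-kB motif and 3.44% the interferon motif. A match describes the letters and is not a bound site.
H2-Aa (chr17:34287774-34288073, minus strand; Y box first base 51 before the start): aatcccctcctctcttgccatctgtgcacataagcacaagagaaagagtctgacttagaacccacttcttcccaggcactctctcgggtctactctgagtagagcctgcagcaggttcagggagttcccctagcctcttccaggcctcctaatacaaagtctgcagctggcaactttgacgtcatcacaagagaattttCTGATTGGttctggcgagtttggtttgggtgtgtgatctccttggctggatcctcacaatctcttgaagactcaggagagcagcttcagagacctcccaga
H2-Eb1 (chr17:34305617-34305916, plus strand; Y box 62 before the start): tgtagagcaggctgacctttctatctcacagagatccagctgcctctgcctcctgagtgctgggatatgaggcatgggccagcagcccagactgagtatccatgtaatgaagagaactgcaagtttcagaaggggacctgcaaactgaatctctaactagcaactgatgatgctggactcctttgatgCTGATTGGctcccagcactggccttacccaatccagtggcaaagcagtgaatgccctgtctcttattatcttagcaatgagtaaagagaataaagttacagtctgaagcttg
Cxcl1 (chr5:90890995-90891294, plus strand; NF-kB motif 89 and 71 before the start): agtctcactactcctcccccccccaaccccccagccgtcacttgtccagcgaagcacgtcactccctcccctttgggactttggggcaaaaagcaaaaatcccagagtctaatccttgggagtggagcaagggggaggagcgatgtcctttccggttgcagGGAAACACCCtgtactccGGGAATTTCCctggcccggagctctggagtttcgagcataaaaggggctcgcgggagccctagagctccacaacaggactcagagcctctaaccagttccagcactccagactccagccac
Csf1 (chr3:107760420-107760719, minus strand; NF-kB motif 154 before the start): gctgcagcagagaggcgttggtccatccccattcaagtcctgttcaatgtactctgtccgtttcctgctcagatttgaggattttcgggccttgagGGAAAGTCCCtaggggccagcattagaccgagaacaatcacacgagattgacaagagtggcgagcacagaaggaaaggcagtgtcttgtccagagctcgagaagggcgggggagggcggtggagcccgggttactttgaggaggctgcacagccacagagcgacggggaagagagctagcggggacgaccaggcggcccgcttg
Igtp (chr11:58199306-58199605, plus strand; interferon motif 34 before the start): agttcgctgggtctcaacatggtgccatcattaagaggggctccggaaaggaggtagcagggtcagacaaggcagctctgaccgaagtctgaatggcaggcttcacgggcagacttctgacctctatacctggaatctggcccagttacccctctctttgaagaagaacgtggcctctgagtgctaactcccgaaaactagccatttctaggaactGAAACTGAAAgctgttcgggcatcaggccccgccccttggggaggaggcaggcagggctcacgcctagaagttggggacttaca

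By definition the members had the highest scores, so their panel values are a description and carry no test. Scores ran from 2.20 to 0.941 in the members, with a median of 1.13, and had a median of 0.393 in the other EC. No gap separated the 2 groups. The last member, in ECKO 2, scored 0.941 with 3 panel genes detected and the first EC outside, in ECWT 1, scored 0.938 with 2 detected. Of the members, 15 had 3 panel genes above 0, 25 had 4, 18 had 5, 14 had 6 and 3 had all 7. Of the other EC, 578 had 2 or fewer.

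**Figure D1:**
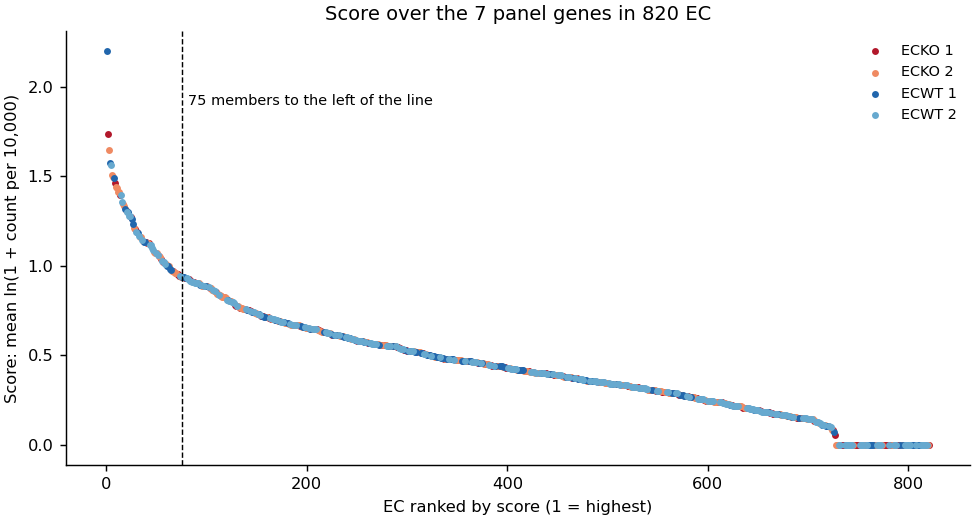
Score of each of the 820 EC (mean of ln(1 + count per 10000) over the 7 panel genes) against its rank, coloured by library, with the line after rank 75. The score falls without a step at the line, from 0.941 to 0.938, and all 4 libraries occur on both sides.

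Cd74 was the most abundant panel transcript in the members, with 1921, 3027, 4014 and 2191 CPM in the members and 663, 889, 1129 and 548 CPM in the other EC. All members but 1 carried it, as did 518 of the other EC. Of all EC, 788 had at least 2500 counts, 74 members among them. With these thinned to 2500 counts, the other 32 left out and 75 members chosen again, 98.7% of members and 56.7% of other EC had a Cd74 count, and 26.7 and 2.24% a Cxcl1 count. Plxdc2 was at 258, 324, 495 and 489 CPM in the members and 102, 113, 72.6 and 122 CPM in the other EC. Cxcl12 was at 374, 351, 487 and 334 CPM in the members and 98.6, 58.0, 124 and 81.1 CPM in the other EC. The pump subunit Atp1b1 stood between 328 and 645 CPM in the members of the 4 libraries, and between 64.5 and 104 CPM in the other EC. The 3 remaining genes were sparse: Cxcl1 was found in 30 members, Tyro3 in 30 and Dcdc2a in 27. Cxcl1 was also the most uneven between libraries, at 193, 87.7, 374 and 62.1 CPM in the members, where ECWT 1 was highest. The genes lie apart in the genome (GENCODE M21, GRCm38): Cxcl1 on chromosome 5 (90891241 to 90893115), Atp1b1 on 1 (164437109 to 164458355), Dcdc2a on 13 (25056004 to 25210706), Cxcl12 on 6 (117168535 to 117181367), and Tyro3 (119797733 to 119818104) and Plxdc2 (16356304 to 16755839) both on 2.

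Each panel gene was then read in cells picked without it. The 75 EC with the highest score over the other 6 genes had more of the left-out gene than the remaining EC in 4 of 4 libraries for each of the 7 genes. The ratio of mean CPM was 5.10 for Tyro3, 5.08 for Dcdc2a, 4.52 for Cxcl1, 3.21 for Atp1b1, 2.69 for Plxdc2, 2.57 for Cd74 and 2.54 for Cxcl12. These sets were chosen from the same cells and kept between 53 (without Cd74) and 70 (without Tyro3) of the 75 members, and the panel itself was chosen on these cells, so the ratios are given with no test. Depth was unequal here too. When the 788 EC were thinned to 2500 counts and the 75 highest were chosen again, 56 of the 74 members among them stayed.

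Members also lay near each other in expression space when the panel genes were left out. Genes that varied with the panel were not left out, members were deeper, and depth was not matched. The values are therefore a description and no independent support for the group. Among the 15 nearest EC of the same library, on 12 principal components of 2000 variable genes, 25, 41.5, 22.4 and 24.2% of the members' neighbours were members. Members made up 7.58, 10.6, 9.35 and 7.38% of the EC that could be drawn. For the other EC the shares were 5.61, 8.35, 7.25 and 4.10%. Clustering of the same components gave 11 groups of EC, of which 1 (cluster 5, 94 EC) held 44 of the 75 members, with 9, 18, 6 and 11 per library. Its leading genes were Gbp2, Csf1, H2-Aa, H2-Ab1, Nt5e, Cxcl9, S100a6 and Efemp1. A second group (cluster 3, 107 EC), led by Sfrp2, Thbs1 and Gdf6, held 17 members. No member fell in the groups led by Nr4a1 and Junb, by Fabp4 and Cd36, by Lum and Dcn, or by Myh11, which held 63, 51, 17 and 8 EC.

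**Figure D2:**
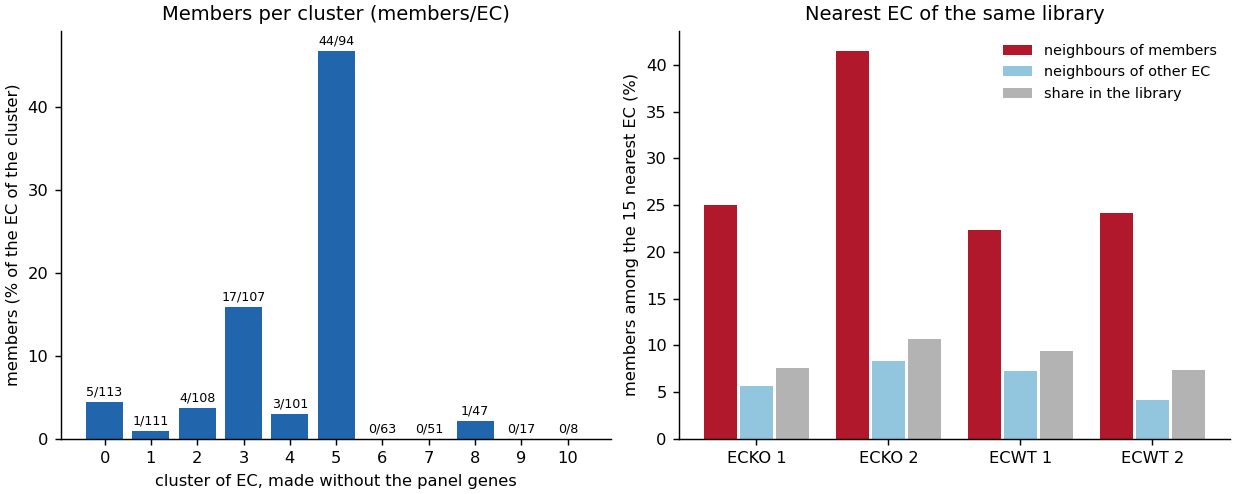
Left, members as a percentage of the EC in each of 11 clusters made without the panel genes, with members/EC above each bar. Right, percentage of members among the 15 nearest EC of the same library for members and for other EC, beside the members' share of the library; the bars of members stand at 22.4 to 41.5% and those of other EC at 4.10 to 8.35%.

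Outside the panel, 6752 genes were tested for a difference between members and other EC within each library, with the library as a term in edgeR's quasi-likelihood model and Benjamini-Hochberg adjustment. At an adjusted p below 0.05, 138 genes were called, 2.04% of those tested, of which 74 (1.10%) were higher and 64 (0.948%) lower in the members. At an unadjusted p below 0.05 there were 651 genes (9.64%). For 392 genes (5.81%) the 4 members' values did not overlap the 4 values of the other EC. The median difference over all genes was -0.01 on the log2 scale. Class II antigen presentation genes, interferon-inducible GTPases, the growth factor Csf1, the adhesion molecule Selp and the lipoprotein gene Apoe were among the higher genes, and Mgp, Cldn5 and the capillary gene Fabp4 were among the lower ones. Differences below are members minus other EC on the log2 scale. The panel was chosen on these same cells, so a call describes a gene that varied with it and is no independent support for the group. The count of calls depended on the libraries: 30 genes were called without ECKO 2, which held 26 members, and 72 without ECWT 2. Of 80 called genes that were followed, 24 were called in each of the 4 fits that left out 1 library, H2-Aa, H2-Ab1, H2-Eb1, Csf1, Apoe, Selp, Iigp1, Mgp and Cldn5 among them. With the 788 EC thinned to 2500 counts, 3139 genes could be tested and 33 were called.

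**Figure D3:**
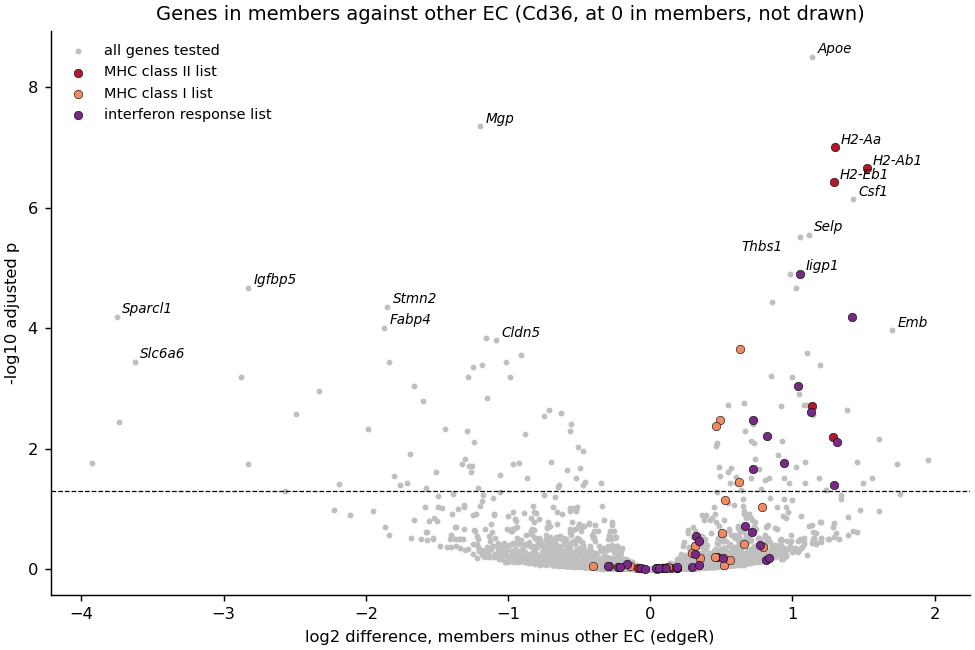
Difference between members and other EC on the log2 scale against -log10 of the adjusted p for the genes tested, with the lists of MHC class II, MHC class I and interferon response genes coloured and the dashed line at 0.05. The class II genes H2-Aa, H2-Ab1 and H2-Eb1 stand at 1.29 to 1.53 with Apoe above them, and Mgp stands at -1.20; Cd36, at 0 counts in members, is not drawn.

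Transcripts of 3 class II chains were higher in the members of every library. H2-Aa, the alpha chain of I-A, was at 761, 1205, 1877 and 878 CPM in the members and 406, 441, 632 and 378 CPM in the other EC (log2 difference 1.30, SE 0.13, edgeR adjusted p = 9.95e-08). H2-Ab1, its beta chain, was at 503, 1059.7, 1538 and 761 CPM in the members and 315, 349, 353 and 271 CPM in the other EC (log2 difference 1.53, SE 0.16, edgeR adjusted p = 2.24e-07). H2-Eb1, the beta chain of I-E, was at 580.2, 698, 895 and 520.5 CPM in the members and 280.2, 257, 364 and 201 CPM in the other EC (log2 difference 1.29, SE 0.14, edgeR adjusted p = 3.82e-07). For all 3 chains the lowest library of members stood above the highest library of other EC, and ECWT 1 was the highest library. The same held for H2-DMa and H2-DMb1, which encode the chaperone that loads peptide on class II. H2-DMa was at 64.5, 114, 156 and 117 CPM in members (log2 difference 1.29, SE 0.27, edgeR adjusted p = 0.00638), and H2-DMb1 at 142, 141, 209 and 179 CPM (log2 difference 1.14, SE 0.22, edgeR adjusted p = 0.00199). Without ECKO 2, neither chaperone gene passed, H2-DMa at 1.08 (edgeR adjusted p = 0.32) and H2-DMb1 at 1.09 (edgeR adjusted p = 0.102), and H2-DMa did not without ECWT 2 either, at 1.29 (edgeR adjusted p = 0.0552).

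Of the 10 tested genes on the class II list, these 5 were higher, 0 were lower and the list's median was 0.80, against -0.01 over all genes. The median was 0.53 without ECWT 2 and 0.50 with 100 members in place of 75. The other 5 encode endosomal proteases and the promoter-binding factor Rfx5 and did not pass: Lgmn had a log2 difference of 0.47 (edgeR adjusted p = 0.621), Rfx5 at 0.15 (edgeR adjusted p = 0.968), and Ctsb, Ctsl and Ctsd between -0.09 and 0.09. Ciita, the class II activator, was too sparse to be tested, at 25.8, 11.4, 43.4 and 77.7 CPM in the members and 14.4, 15.2, 16.1 and 11.8 CPM in the other EC, higher in members in 3 of 4 libraries. Cd74 is itself a gene of the class II group and was part of the score. With Cd74 left out of the score, 53 of the 75 cells stayed and 105 of 6496 genes (1.62%) were called. H2-Aa was then at 584, 1251, 1889.8 and 585 CPM against 418, 476, 644 and 396 CPM (log2 difference 1.03, SE 0.15, edgeR adjusted p = 7.16e-05). H2-Ab1 had a log2 difference of 1.19 (edgeR adjusted p = 1.10e-04), H2-Eb1 at 1.04 (edgeR adjusted p = 5.65e-05), H2-DMb1 at 1.02 (edgeR adjusted p = 0.00954) and H2-DMa at 1.06 (edgeR adjusted p = 0.0550). Of the 4 called class II genes with a promoter entry, H2-Aa and H2-Eb1 held the Y box letters shown above, and H2-DMa and H2-DMb1 did not.

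White blood cells carry class II and Cd74 at high levels, so their markers were read in the same sums. Of 13 leukocyte markers in the table, 7 were at 0 counts in the members, among them Csf1r, Cd68 and Coro1a, and 0 were abundant enough to be tested. Their summed level was 0, 11.4, 26.1 and 31.1 CPM in the members and 3.32, 11.2, 8.06 and 17.0 CPM in the other EC, higher in the members in 3 of 4 libraries. Leaving out the EC with a count of Ptprc, Cd52, Laptm5, Tyrobp, Fcer1g or Coro1a kept 804 EC. There 117 genes were called, H2-Aa, H2-Ab1 and H2-Eb1 among them. EC with counts of other leukocyte markers only were not left out. The 15 EC markers were all present in the members, with sums of 14109 to 17495 CPM against 18115 to 19537 CPM. Of the 13 tested, 0 were higher and 3 were lower: Tek, the angiopoietin receptor, with a log2 difference of -0.52 (edgeR adjusted p = 0.0308), the tight junction gene Cldn5 at -1.08 (edgeR adjusted p = 1.60e-04) and Flt1, a VEGF receptor, at -1.80 (edgeR adjusted p = 0.0281). Tek and Flt1 lost their calls in each of the 4 fits that left out 1 library, with edgeR adjusted p from 0.0505 to 0.187 for Tek and from 0.0792 to 0.136 for Flt1, and Cldn5 kept its call in all 4.

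**Figure D4:**
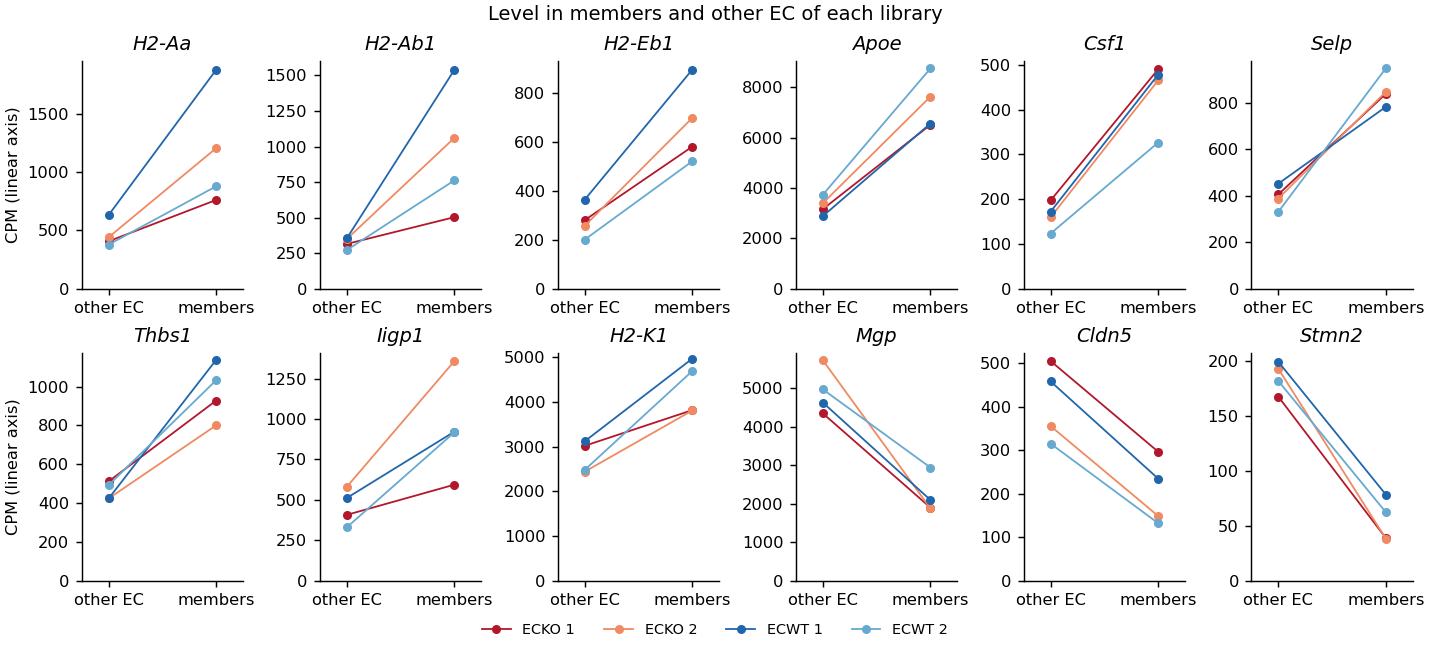
Level of 12 genes in CPM, linear axis from 0, in the other EC and in the members of each library, joined by a line per library. H2-Aa, H2-Ab1, H2-Eb1, Apoe, Csf1, Selp, Thbs1, Iigp1 and H2-K1 rise from other EC to members in all 4 libraries, and Mgp, Cldn5 and Stmn2 fall in all 4.

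Class I genes were read next. H2-K1, a classical class I heavy chain, was at 3816, 3808, 4969 and 4692 CPM in the members and 3018, 2439, 3120.2 and 2479.5 CPM in the other EC (log2 difference 0.63, SE 0.10, edgeR adjusted p = 2.26e-04). H2-D1 rose by 0.49 (edgeR adjusted p = 0.00329), the light chain B2m by 0.47 (edgeR adjusted p = 0.00425) and the proteasome activator Psme1 by 0.63 (edgeR adjusted p = 0.0357) on the log2 scale. Of 20 tested class I genes 4 were higher, 0 were lower and 16 did not pass, with a median of 0.48. The peptide transporter Tap1 had a log2 difference of 0.79 (edgeR adjusted p = 0.0936) and the immunoproteasome subunit Psmb8 one of 0.53 (edgeR adjusted p = 0.0713). H2-K1 passed under the score without Cd74 as well as in the full score, whereas H2-D1, B2m and Psme1 lost their calls there, at 0.36, 0.35 and 0.47 (edgeR adjusted p = 0.0842, 0.0686 and 0.189). Psme1 lost its call in 25 of 32 alternatives, among them each of the 4 fits that left out 1 library (edgeR adjusted p from 0.0792 to 0.354). Without ECKO 2, 0 of the 4 class I calls passed, with H2-K1 at 0.61 (edgeR adjusted p = 0.0681), and without ECWT 2 H2-K1 alone did. Of the 4 promoters, those of H2-K1 and H2-D1 held the Y box letters and those of B2m and Psme1 the interferon motif.

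Interferon-inducible genes formed the longest group of calls. Of 34 tested genes 10 were higher and 0 lower, with a median of 0.35 (0.54 without ECKO 1). Iigp1, an immunity-related GTPase, was at 593, 1357, 921 and 917 CPM in the members and 406, 579.5, 511 and 329 CPM in the other EC (log2 difference 1.05, SE 0.14, edgeR adjusted p = 1.25e-05). The groups did not overlap, and ECKO 2 was the highest library. The guanylate-binding protein Gbp2 was at 451, 515, 1182 and 218 CPM in the members and 272, 206, 204 and 129.8 CPM in the other EC (log2 difference 1.42, SE 0.20, edgeR adjusted p = 6.42e-05). Among the members ECWT 1 was highest, and ECWT 2 lay within the range of the other EC. The GTPases Gbp3, Gbp7, Igtp and Irgm2 rose by 1.13, 0.73, 0.82 and 0.72 on the log2 scale, and Bst2, which tethers virions at the membrane, by 1.04 (edgeR adjusted p = 9.11e-04). Without ECKO 2, Iigp1 alone of the 10 passed, at 0.95 (edgeR adjusted p = 0.0317), with Gbp2 at 1.42 (edgeR adjusted p = 0.063), and without ECWT 2 there were 3 that passed.

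Of the interferon list, the antiviral genes Ifit3 (log2 difference 1.32, edgeR adjusted p = 0.00768) and Ifit1 (log2 difference 1.29, edgeR adjusted p = 0.0408) also passed, though in ECKO 1 Ifit1 was lower in the members, at 12.9 against 24.4 CPM. Both lost their calls without ECKO 2, ECWT 1 or ECWT 2 (edgeR adjusted p from 0.0943 to 0.511). Of the receptors, Ifngr1, a chain of the interferon gamma receptor, was higher, at 284, 419, 313 and 482 CPM in the members and 280.2, 212, 209.6 and 222 CPM in the other EC (log2 difference 0.74, SE 0.17, edgeR adjusted p = 0.0148), while Ifngr2 had a log2 difference of 0.31 (edgeR adjusted p = 0.884), Ifnar1 one of -0.13 and Ifnar2 one of -0.21. Ifngr1 did not pass without ECKO 2 (edgeR adjusted p = 0.467) or without ECWT 2 (edgeR adjusted p = 0.27). All 8 called interferon genes with a promoter entry held the interferon motif in at least 1 of their promoters. Genes of this list that were not called were not searched, and 3.44% is a share per promoter. The matches are therefore a description and no test. None of the 5 panel promoters searched held the interferon motif.

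Csf1, the growth factor of macrophages, was at 489.9, 465, 478 and 326 CPM in the members and 197, 159.6, 172 and 123 CPM in the other EC (log2 difference 1.43, SE 0.16, edgeR adjusted p = 7.22e-07). The groups did not overlap, and Csf1 passed the test under all 32 alternatives run. The other 5 tested chemokine and cytokine genes had log2 differences above 0 but did not pass: Cxcl16 at 0.64 (edgeR adjusted p = 0.373), Mif at 0.64 (edgeR adjusted p = 0.516), Tnfsf10 at 0.56, Il15 at 0.45 and Cx3cl1 at 0.33. The interferon-induced chemokine Cxcl9, too sparse to be tested, was at 0, 0, 374 and 7.77 CPM in the members, so that nearly all of its counts came from ECWT 1. Ackr3 (listed as Cxcr7), a receptor of Cxcl12, had a log2 difference of 0.26 (edgeR adjusted p = 0.792). Of 19 tested NF-kB feedback and target genes 0 passed, with 5 at an unadjusted p below 0.05, and the median was 0.18 (0.0376 without ECKO 2 and 0.37 without ECKO 1). Tnfaip3, a feedback inhibitor, had a log2 difference of 1.15 (edgeR adjusted p = 0.307) and Nfkbia one of -0.09 (edgeR adjusted p = 0.961). The NF-kB letters occurred in the promoters of Cxcl1 and Csf1 and in none of the other 4 panel promoters searched.

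Selp, encoding P-selectin, on which leukocytes roll, was at 838, 846, 782 and 948 CPM in the members and 405, 388, 452 and 330.4 CPM in the other EC (log2 difference 1.11, SE 0.13, edgeR adjusted p = 2.81e-06). Even the lowest of the members' libraries lay well above the highest of the other EC. Cd44, a hyaluronan receptor that also pairs with Cd74 in Mif signalling, rose by 1.45 (edgeR adjusted p = 0.0167) on the log2 scale, a call that was lost without ECKO 1, ECKO 2 or ECWT 2 (edgeR adjusted p from 0.0956 to 0.196). Jam2, a junctional adhesion molecule, fell by 0.98 (edgeR adjusted p = 6.39e-04) and the sialomucin Podxl by 1.01 (edgeR adjusted p = 3.63e-04) on the log2 scale. The remaining 14 of 18 adhesion genes tested did not pass. The classical inducible molecules were among these, Vcam1 at 361, 663, 374 and 451 CPM in the members and 353, 363, 501 and 296 CPM in the other EC (log2 difference 0.34, SE 0.17, edgeR adjusted p = 0.549) and Icam1 at 219, 328, 547 and 279.7 CPM in the members and 262, 306, 290.3 and 238 CPM in the other EC (log2 difference 0.28, SE 0.17, edgeR adjusted p = 0.685). Their groups overlapped, and the sign of both differences changed under other settings. Vcam1 passed in 1 of 32 alternatives, with Dcdc2a out of the score (log2 difference 0.56, edgeR adjusted p = 0.0413).

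The smallest p of the genes tested was that of Apoe, the apolipoprotein through which lipoproteins bind their receptors, which was named after its values were seen. Apoe was at 6511, 7628, 6559 and 8747 CPM in the members and 3162, 3398, 2884 and 3735 CPM in the other EC (log2 difference 1.14, SE 0.09, edgeR adjusted p = 3.14e-09). In mean level this was 7361 ± 1058 against 3295 ± 361 CPM (SD, n = 4 libraries). Mgp, matrix Gla protein, an inhibitor of calcification made in the vessel wall, was lower. Mgp was at 1895, 1875, 2094 and 2936 CPM in the members and 4341, 5719.6, 4623 and 4965 CPM in the other EC (log2 difference -1.20, SE 0.11, edgeR adjusted p = 4.49e-08). Both genes passed in every alternative run. In the clusters that held most members, the EC that were not members differed from the rest in the same directions: Apoe was at 5623 CPM in those of cluster 5, 6634 in those of cluster 3 and 2648 in the other EC elsewhere, and Mgp at 2870.4, 2885 and 5562 CPM. The 14 members outside both clusters had 4715 CPM of Apoe and 3374 of Mgp.

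Genes known to respond to flow were called in both directions. Of 24 tested genes of the list induced by high shear, 1 was higher and 4 were lower, with a median of -0.44. The higher one, the water channel Aqp1, was at 1147, 968, 1016 and 932 CPM in the members and 648, 381, 718 and 345 CPM in the other EC (log2 difference 1.02, SE 0.14, edgeR adjusted p = 2.16e-05). The lower ones were the cytochrome Cyp1b1 (log2 difference -0.71, edgeR adjusted p = 0.00227), Tek, the protease Klk8 (log2 difference -1.30, edgeR adjusted p = 0.0149) and the taurine transporter Slc6a6, with 3 counts in the members against 286 in the other EC, 12.3-fold lower (95% counting interval 4.17 to 60.1). Klf2 and Klf4, the transcription factors most tied to laminar flow, had log2 differences of -0.31 (edgeR adjusted p = 0.725) and -0.48 (edgeR adjusted p = 0.204), and Nos3, the endothelial nitric oxide synthase, one of -0.43 (edgeR adjusted p = 0.179); none of the 3 passed, and Klf2 passed in 1 of 32 alternatives, without ECWT 1 (log2 difference -0.80, edgeR adjusted p = 0.0221). In the 4 fits that left out 1 library, Aqp1 and Slc6a6 kept their calls throughout, Tek lost its call in all 4, Klk8 in 3 and Cyp1b1 in 1 (without ECKO 2, edgeR adjusted p = 0.146).

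The list of low or disturbed flow had 4 higher and 2 lower genes of 21 tested, with a median of 0.29 that was 0.0453 without ECKO 2 and 0.0580 without ECWT 1. Thbs1, a matricellular inhibitor of angiogenesis, was at 928, 801, 1138 and 1033 CPM in the members and 512, 423, 423 and 493 CPM in the other EC (log2 difference 1.05, SE 0.12, edgeR adjusted p = 3.07e-06). Bmp4, an inflammatory ligand of the BMP family, was at 2707, 2543, 3223 and 3799 CPM in the members and 1822, 2225, 1920.2 and 2248 CPM in the other EC (log2 difference 0.55, SE 0.10, edgeR adjusted p = 0.00188). Cyr61 rose by 0.86 (edgeR adjusted p = 3.72e-05) and Edn1, the vasoconstrictor endothelin, by 0.73 (edgeR adjusted p = 0.00385) on the log2 scale. Fn1 (fibronectin) fell by 0.49 (edgeR adjusted p = 0.0207) and the Wnt antagonist Frzb by 0.86 (edgeR adjusted p = 0.0302) on the log2 scale. Without ECWT 2, Thbs1 and Cyr61 passed, and Bmp4, Edn1, Fn1 and Frzb did not (edgeR adjusted p = 0.0834, 0.0702, 0.143 and 0.0691). Fn1 and Frzb did not pass without ECKO 2 either, and neither passed with Cd74 out of the score (edgeR adjusted p = 0.38 and 0.687). With Cd74 and Cxcl12 out of the score, Thbs1 at 0.48 (edgeR adjusted p = 0.258), Bmp4 at 0.34 and Edn1 at 0.15 (edgeR adjusted p = 0.914) did not pass, and Thbs1 did not with Cxcl12 alone left out either. Cyr61 and Edn1 were higher in the members within each library, although the range over the members' libraries overlapped that of the other EC.

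**Figure D5:**
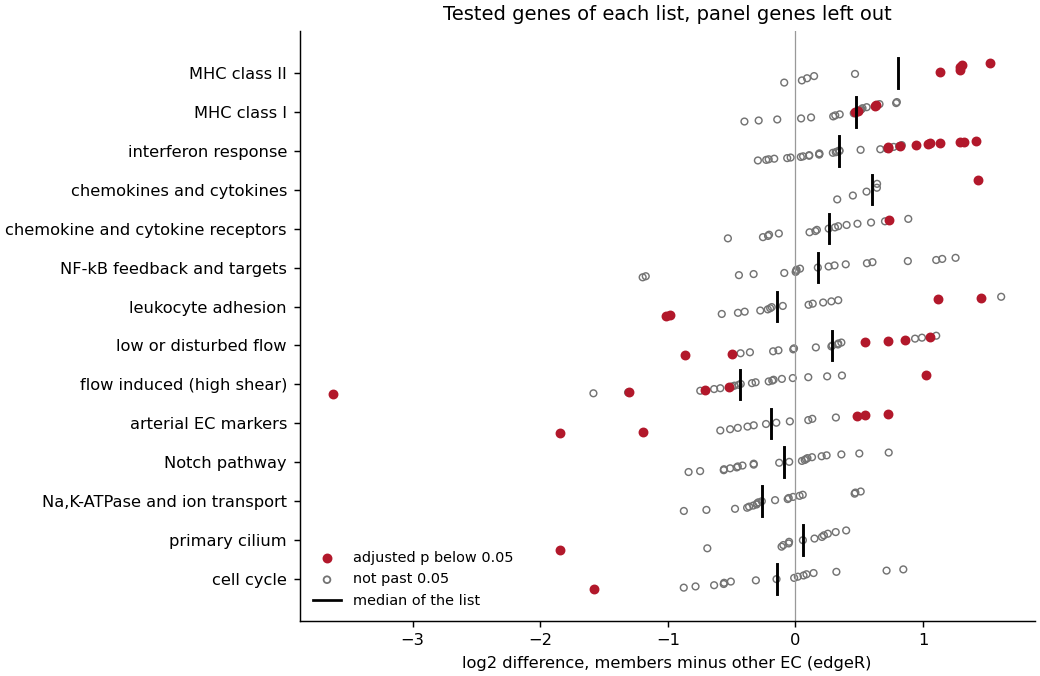
Difference between members and other EC (log2) for the tested genes of 14 lists, panel genes left out; filled points passed an adjusted p of 0.05, open points did not, and the bar is the list's median. Class II genes divide into 5 that passed at 1.14 to 1.53 and 5 at -0.09 to 0.47, and the high shear list has its median at -0.44.

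Of 16 tested arterial identity genes 3 were higher, 2 were lower and 11 did not pass, with a median of -0.19. Efnb2, the arterial ephrin ligand, rose by 0.54 (edgeR adjusted p = 0.0243) and Nrp1, a co-receptor of VEGF and semaphorins, by 0.48 (edgeR adjusted p = 0.0203) on the log2 scale. Efnb2 lost its call in each of the 4 fits that left out 1 library (edgeR adjusted p from 0.106 to 0.173) and in 26 of 32 alternatives in all, and Nrp1 in 3 of the 4 fits and 12 of the 32. Stmn2, a microtubule regulator, fell, at 38.7, 38.1, 78.2 and 62.1 CPM in the members and 167, 193, 199 and 181 CPM in the other EC (log2 difference -1.85, SE 0.26, edgeR adjusted p = 4.47e-05). Of 22 tested Notch pathway genes 0 passed, with 3 at an unadjusted p below 0.05 and a median of -0.09; Notch4 had a log2 difference of -0.84 (edgeR adjusted p = 0.144), Notch1 one of -0.33 (edgeR adjusted p = 0.614) and Dll4 one of -0.45 (edgeR adjusted p = 0.895). The list of the TGF-beta and BMP pathway had Bmp4 higher and Id1, a BMP target, lower (log2 difference -1.25, edgeR adjusted p = 0.0196) of 21 tested, and Id1 passed without ECKO 1 but not without any of the other 3 libraries. Id1 lost its call in 18 of 32 alternatives, and with Cd74 out of the score it was at -0.43 (edgeR adjusted p = 0.728). Immediate early genes, which can be induced when tissue is digested, had 0 of 25 called, with 5 at an unadjusted p below 0.05.

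The pathways of the other panel genes were read against the 2.04% called over all genes tested. None of the 3 tested genes of TAM receptors and their ligands passed, with 0 at an unadjusted p below 0.05, and the ligand Gas6 had a log2 difference of 0.16 (edgeR adjusted p = 0.86) and Pros1 one of -0.05 (edgeR adjusted p = 0.981). Of 19 tested pump and ion transport genes 0 passed, with 2 at an unadjusted p below 0.05. Of 13 tested cilium genes Stmn2 alone was called, and of 9 plexin genes and partners Nrp1 alone. Mif receptor genes had Cd44 as the 1 call of 5.

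Some higher genes fell outside the lists given above. The intermediate filament gene Synm was at 90.2, 45.7, 52.1 and 38.8 CPM in the members and 18.8, 13.2, 16.1 and 16.2 CPM in the other EC (log2 difference 1.73, SE 0.41, edgeR adjusted p = 0.018). Emb, an immunoglobulin-type glycoprotein, was at 103, 118, 122 and 225 CPM in the members and 32.1, 28.4, 34.9 and 84.8 CPM in the other EC (log2 difference 1.70, SE 0.25, edgeR adjusted p = 1.08e-04), with no overlap between the groups. Synm was not called without ECKO 1, ECKO 2 or ECWT 1 (edgeR adjusted p = 0.0792, 0.201 and 0.051), and Emb was called in all 4 such fits. Col8a1, a collagen of the intima, rose by 1.39 (edgeR adjusted p = 0.00227), the BMP-family ligand Gdf6 (edgeR adjusted p = 0.0376) reached 38.7, 49.6, 182 and 38.8 CPM, and the predicted gene Gm4980 rose by 1.61 (edgeR adjusted p = 0.00696) on the log2 scale. Nt5e, the ectoenzyme CD73 that makes adenosine, rose by 1.10 (edgeR adjusted p = 2.61e-04), the complement inhibitor Serping1 by 1.10 (edgeR adjusted p = 0.00186), the fibulin Efemp1 by 1.04 (edgeR adjusted p = 0.00123) and Tmsb10, which binds actin, by 0.98 (edgeR adjusted p = 1.25e-05) on the log2 scale. Without ECKO 2, Col8a1, Gm4980, Gdf6, Serping1 and Efemp1 did not pass (edgeR adjusted p from 0.0603 to 0.449), and without ECWT 1 Gdf6 and Serping1 did not (edgeR adjusted p = 0.618 and 0.0617). With Cd74 out of the score, Col8a1 at 1.06 and Gdf6 at 1.52 did not pass (edgeR adjusted p = 0.0744 and 0.0699). Nt5e and Tmsb10 passed without each library. Serping1 was the 1 call of 15 tested complement and coagulation genes. Efemp1 was 1 of 2 higher genes on a matrix list of 33 tested genes, 4 of which were lower.

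Lower genes included markers of capillary endothelium and of mural cells. Cd36, the fatty acid transporter of capillaries, had 0 counts in the members and 363 in the other EC, at least 15.6-fold lower over the group when set against a floor of 3 counts. This depended on how the members were chosen. With Cd74 out of the score, Cd36 was at 195 CPM in the ECKO 1 members and 197 CPM in the other EC there (log2 difference over libraries -1.15, edgeR adjusted p = 0.27), and after thinning it did not pass (edgeR adjusted p = 0.488). Fabp4, the fatty acid binding protein, was at 129, 80.1, 0 and 62.1 CPM in the members and 692, 183, 137 and 161 CPM in the other EC (log2 difference -1.87, SE 0.28, edgeR adjusted p = 9.97e-05). These were the 2 tested genes of an 8-gene list of capillary or lipid-handling markers, which summed to 26.1 to 168 CPM in the members and 223 to 963 CPM in the other EC. Plvap, of fenestrated and venous endothelium, fell by 1.15 (edgeR adjusted p = 1.47e-04) on the log2 scale and did not pass without ECKO 2 (log2 difference -1.07, edgeR adjusted p = 0.0745). The 8 venous markers, which do not include Plvap, summed to 1263, 1555, 1242 and 1499 CPM in the members and 1206, 913, 1156 and 742 CPM in the other EC, higher in the members in all 4 libraries with no overlap. Of these sums, Selp alone gave 838, 846, 782 and 948 CPM in the members and 405, 388, 452 and 330 CPM in the other EC. The rest of the sum overlapped between the groups and was lower in the members of ECKO 1 and ECWT 1. Of the 3 tested, Selp, the most abundant of them, was higher and 2 did not pass, with a median of 0.34. When the tenth of EC richest in capillary markers was left out, Fabp4, itself the most abundant of the markers used to leave out these cells, had a log2 difference of 1.33 and 131 genes were called, H2-Aa, Csf1, Apoe and Mgp among them. Sparcl1, a matricellular gene, had 3 counts in the members against 331 in the other EC, 14.2-fold lower (95% counting interval 4.83 to 69.5).

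Fibroblast genes did not move as 1 group. Dcn (decorin) had a log2 difference of 0.60 (edgeR adjusted p = 0.0298), but was lower in the members of ECKO 2, at 1010.2 against 1224 CPM. Without ECKO 2 its difference was 0.93 (edgeR adjusted p = 0.00592), and without ECKO 1, ECWT 1 or ECWT 2 it did not pass (edgeR adjusted p = 0.0908, 0.276 and 0.465). Lum (lumican) was lower at 0, 34.3, 8.69 and 15.5 CPM in the members and 32.1, 161, 121 and 17.7 CPM in the other EC (log2 difference -2.33, SE 0.42, edgeR adjusted p = 0.00111), Col3a1 fell by 1.66 (edgeR adjusted p = 9.09e-04) and Col1a1 had 2 counts in the members against 205 in the other EC, 13.2-fold lower (95% counting interval 3.62 to 110.0). With Cd74 out of the score, Lum, Col3a1 and Col1a1 lost their calls, at -1.22, -1.15 and -0.97 (edgeR adjusted p = 0.214, 0.0917 and 0.703), and Col1a1 was at 92.3 CPM in the ECKO 1 members against 29.4 CPM in the other EC there. The median over the 7 tested genes was -1.58. Over the list genes tested in each setting it was -0.68 without ECKO 2, -0.59 with 100 members and 0.0263 after thinning. The 10 markers summed to 1496 to 2362 CPM in the members and 1334 to 2407 CPM in the other EC, with Pdgfra at 0 in the members. Myh11, the smooth muscle myosin, was at 64.5, 49.6, 0 and 46.6 CPM in the members and 213, 229, 1.34 and 102 CPM in the other EC (log2 difference -1.84, SE 0.30, edgeR adjusted p = 3.63e-04), and the 10 smooth muscle markers summed to 443 to 957 against 353 to 1749 CPM. Col3a1 and Myh11 did not pass without ECKO 2 (edgeR adjusted p = 0.154 and 0.187). Without the EC in the highest 5% of these markers, 129 genes were called and Myh11, itself one of them, had a log2 difference of 0.36.

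Further genes lower in members were the protease Prss23 (log2 difference -2.88, edgeR adjusted p = 6.47e-04), the lipoprotein receptor Lrp1 (log2 difference -2.49, edgeR adjusted p = 0.00269), the phosphatase Ptprr (log2 difference -1.76, edgeR adjusted p = 0.0404), the phospholipase Pla2g5 (log2 difference -1.99, edgeR adjusted p = 0.00474) and its companion in another EC panel, Pcolce2 (log2 difference -1.24, edgeR adjusted p = 4.43e-04). Igfbp5, which binds insulin-like growth factors, fell by 2.83 (edgeR adjusted p = 2.16e-05) on the log2 scale, and Igf2 had a log2 difference of -1.60 (edgeR adjusted p = 0.00162). Without ECKO 2, Prss23, Lrp1, Ptprr, Pla2g5, Igfbp5 and Igf2 did not pass (edgeR adjusted p from 0.0882 to 0.325), and without ECWT 2 Ptprr and Pla2g5 did not. Ptprr did not pass without ECWT 1 either (edgeR adjusted p = 0.12). With Cd74 out of the score, Lrp1 was at -0.62 (edgeR adjusted p = 0.731) and Pcolce2 at -0.60 (edgeR adjusted p = 0.353). Fbln2, a fibulin of the elastic layer, was at 348, 640.4, 426 and 536 CPM in the members and 879, 846, 1071 and 955 CPM in the other EC (log2 difference -0.91, SE 0.15, edgeR adjusted p = 2.78e-04). Igfbp5, Igf2 and Fbln2 were each lower in the members in at least 3 of 4 libraries. Of the members, 11 were also among the 75 EC highest in a panel of Dcn, Sfrp2, Thbs1 and Gdf6, 7 in a panel led by Lyve1, 5 by Klk10, 3 by Vcan and 1 by Slc26a4, where 9.15% of EC fall in each.

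Members differed among themselves. Per 10000 counts, Cd74 ran from 0 to 121 with a median of 22.5, H2-Aa from 0 to 40.5 with a median of 8.77 and Apoe from 13.6 to 268 with a median of 60.9. The 44 members in cluster 5 had 724 CPM of Gbp2 and 714 of Thbs1, and the 17 in cluster 3 had 199.8 and 1923 CPM. H2-Aa was at 1339 and 1166 CPM in these groups, at 613 CPM in the other 14 members, and at 584 and 490.4 CPM in the EC of clusters 5 and 3 that were not members. The EC of cluster 3 that were not members had 1949 CPM of Thbs1, 4753 of Bmp4 and 805 of Edn1, against 1923, 5312 and 833 CPM in the members there, so that high levels of these 3 genes were shared by the whole cluster. Csf1 was at 441, 449.6 and 422 CPM in the 3 groups of members, and at 366 and 179 CPM in the EC of clusters 5 and 3 that were not members. These genes helped to make the clusters, so the values are a description.

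The panel genes themselves did not mark the same members. The 17 members without Atp1b1 counts had 2109 CPM of Thbs1 and 448 of Aqp1, and the 58 with it had 651 and 1126 CPM. The 27 members with Dcdc2a counts had 1473 CPM of Aqp1 and 625 of Thbs1. H2-Aa was at 1214 CPM in members with Cxcl1 and 1199 CPM in members without it. These sums pool members of all 4 libraries and are given without a test.

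The study asked what deletion of Jag1 in EC does to the aortic endothelium, and the members can be compared between labels with 2 libraries each. They made up 8.04% (95% exact binomial interval 4.67 to 12.7) and 11.02% (7.32 to 15.7) of the EC in the libraries labelled ECKO, and 10% (5.58 to 16.2) and 7.76% (4.73 to 11.8) in those labelled ECWT. The mean share was 0.651 percentage points higher under ECKO, the labels overlapped, and the exact permutation test over 6 assignments gave a two-sided p of 0.667, where 0.333 is the smallest it can give. Intervals cover counting error only.

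Jag1 itself, the targeted gene, did not follow the labels. In the members it was at 116, 145, 8.69 and 31.1 CPM and in the other EC at 168, 58.0, 36.3 and 25.1 CPM, higher in both libraries labelled ECKO than in both labelled ECWT in each group of cells. Within members the difference was 2.69 on the log2 scale (SE 0.67, edgeR adjusted p = 0.888 over 2221 genes), on 52 counts in all. Counts come from the 3' end of transcripts, and the sources used here do not say whether the deleted exons lie there. The direction of every comparison below is therefore that of the labels only.

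Within the members 0 of 2221 genes passed between labels by edgeR, with 112 (5.04%) at an unadjusted p below 0.05, and 0 passed by DESeq2, with 26 at an unadjusted p below 0.05. On the log2 scale the class II genes had H2-Aa at -0.43 (SE 0.38), H2-Ab1 at -0.47 (SE 0.41) and H2-Eb1 at -0.10 (SE 0.31), ECKO minus ECWT, with Csf1 at 0.26 (SE 0.29) and Apoe at -0.10 (SE 0.32). Leaving out ECKO 2 gave 58 calls and leaving out ECKO 1 gave 13, each with 1 library against 2, the lone library being assumed to vary like the others.

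The contrast of members with other EC was also compared between labels, as an interaction in 1 fit. It gave 1 call of 6752 (0.0148%), the ribosomal transcript Rn45s, with 296 genes (4.38%) at an unadjusted p below 0.05. Rn45s was at 123111, 131942, 61995 and 81536 CPM in the members and 108792, 127609, 78800.2 and 101277 CPM in the other EC. It was therefore higher in members under ECKO and lower under ECWT (difference of the log2 differences 0.47, SE 0.10, edgeR adjusted p = 0.0369). For H2-Aa the interaction was -0.14 (SE 0.23), for Csf1 0.04 (SE 0.32), for Selp -0.05 (SE 0.25) and for Apoe -0.08 (SE 0.15), none of which passed.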

How the data were processed

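Cells of 4 libraries were analysed. The authors aligned reads with STAR to GRCm38 and deposited estimated counts: for each gene in each cell, the UMI number corrected for repeats of a UMI; they used Seurat 3.1 and did not normalize these values, whose counting tool is not given in the sources used here. Estimated counts were rounded and summed per library over members and over other EC. Depth of these sums ran from 77564 to 1516710 counts. Panel genes were removed, genes were filtered with filterByExpr, scaled by TMM and tested with edgeR 4.0.16 (R 4.3.3; quasi-likelihood, library as block, Benjamini-Hochberg). DESeq2 1.42.0 and other settings were alternatives. Clusters used scanpy 1.11.5; no doublet caller was run. On simulated data of the members' comparison with 6752 genes and 200 changed, a log2 change of 1 was recovered in 44.6% of cases and a change of 2 in 85.4%, with 4.8 false calls on average.

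The members and gene lists were chosen with earlier results of these data known. Genes named are the 12 with the largest differences each way among called genes with a mean above 50 CPM, list members, and some chosen after their values were seen (Apoe, Mgp, Tmsb10, Nt5e and the Hox genes among them). Some list members are not reported here.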

Additional observations from a re-analysis of the deposited data

Results flagged for a closer look

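Rn45s, the ribosomal precursor transcript, differed between labels in its contrast of members with other EC, by 0.466 on the log2 scale (edgeR adjusted p = 0.0369), and in summed CPM both libraries labelled ECKO moved up where both labelled ECWT moved down. By the median over cells, Rn45s made up 9.64, 10.9, 6.01 and 6.04% of counts in the members and 8.47, 9.85, 5.52 and 6.85% in the other EC of ECKO 1, ECKO 2, ECWT 1 and ECWT 2, so that by this measure ECWT 1 moved up too. With Rn45s and the mitochondrial genes left out, the interaction called 2 genes by edgeR, the immediate early genes Egr1 and Fos. DESeq2, run with Rn45s and the mitochondrial genes kept, called 0.

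Of the 171 deposited cells left out of the EC, 5 had a score at or above that of the lowest member, with 1, 3, 0 and 1 in the 4 libraries. Of the 171, 167 had 1200 genes or fewer.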

How the results depend on the processing

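Members against other EC gave 72 calls with EC of the members' 10th to 90th percentile of depth, 33 after thinning, 53 without EC of the other panels, 74 by DESeq2, 204 with no filter on low counts (59 higher and 145 lower) and, without single libraries, 30 to 134 (30 without ECKO 2, 72 without ECWT 2). No paired analysis between labels was possible because the labels pair no libraries; the replicate block here is the library shared by members and other EC, and without that block 39 genes were called. Of 2687 results for named genes, 2160 kept their side of the threshold, 516 lost it, 2 gained it (Vcam1 and Klf2, in 1 setting each) and 9 changed sign. Those 9 were Fabp4 at 1.33 without the EC highest in capillary markers, Myh11 at 0.36 without those highest in fibroblast and VSMC markers, Jag1 at -0.60 without ECKO 2 (up to 0.72 without another library), Vcam1 at -0.14 with 50 members, -0.0832 with an equal share per library, -0.19 without Plxdc2 in the score and -0.16 thinned, and Icam1 at -0.00199 within the members' 10th to 90th percentile of depth and -0.0462 thinned. H2-Aa, H2-Ab1, H2-Eb1, Csf1, Apoe, Selp, Iigp1, Aqp1, Mgp and Cldn5 passed under every alternative run.

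Some list medians moved by more than their spread over libraries, or by over 1.5 times without 1 library. The low flow list was at 0.0453 to 0.39 without single libraries, NF-kB at 0.0376 to 0.37, class II at 0.53 to 1.08 and interferon at 0.30 to 0.54. Thinned, class II was at 1.21, class I at 0.25 and fibroblast markers at 0.0263. Each median covers the list genes tested in that setting, and thinning left 3139 tested genes in place of 6752. Fibroblast markers were at -0.59 with 100 members, -0.81 without Cd74 and Cxcl12 and -1.99 to -0.68 without single libraries (-0.68 without ECKO 2). The high shear list was at -0.27 with 100 members, -0.36 thinned, -0.34 without Cd74, -0.32 without Cd74 and Cxcl12 and -0.52 to -0.39 without single libraries, and the Notch list at -0.41 to -0.0134 without single libraries (-0.41 without ECKO 2). Leukocyte adhesion was at 0.0106 without Cd74 and Cxcl12. The difference in share between labels was -0.566 points with 50 members, -1.88 with 100, -0.738 with at least 1500 genes, and -0.837 to 2.14 without single libraries (negative without ECKO 2, and without ECWT 2 at -0.471). Without single libraries, labels within members gave 1 to 58 calls and the interaction 2 to 13; the interaction gave 0 by DESeq2 and 2 without Rn45s and mitochondrial genes. The causes were not tested. With 14 to 26 members per library, genes under about 50 CPM rest on few counts. The settings on capillary markers, immediate early genes, Rn45s and the score without both Cd74 and Cxcl12 were chosen after seeing the data.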

Other observations

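Hox genes, which mark position along the body axis, were looked at after 3 of them had been called. Of 32 Hox genes with counts, 11 were abundant enough to be tested, and 3 were lower and 0 higher in the members, where 0.948% of all genes tested were lower. Of the 11, 7 had differences below 0. The split by paralogue group below was made after the calls were seen and is a description. Summed over the 18 genes of paralogue groups 6 to 13, the level was 12.9, 53.4, 43.4 and 93.2 CPM in the members and 193, 199, 232 and 209 CPM in the other EC, lower in all 4 libraries with no overlap. Of all single genes tested, 5.81% had no overlap in either direction, a share that is no background for a sum over genes. Over the 14 genes of groups 1 to 5 the ranges overlapped, with 489.9, 271, 426 and 404 CPM in the members and 413, 309, 511 and 372 CPM in the other EC. Hoxa10 had 1 count in the members against 130 in the other EC, 16.8-fold lower (95% counting interval 2.96 to 668). Hoxa7 had 3 counts in the members against 136 in the other EC, 5.85-fold lower (95% counting interval 1.96 to 28.7), and Hoxb3 was at 0, 3.81, 26.1 and 7.77 CPM in the members and 32.1, 33.6, 60.5 and 36.1 CPM in the other EC (log2 difference -2.19, SE 0.58, edgeR adjusted p = 0.0386). In fits that left out 1 library, Hoxa7 lost its call in all 3 that tested it (edgeR adjusted p = 0.1, 0.121 and 0.134) and Hoxb3 in 3 of 4 (edgeR adjusted p = 0.0762, 0.449 and 0.161), while Hoxa10 kept its call in all 3 that tested it. With Cd74 out of the score, Hoxa10 at -2.97 and Hoxa7 at -2.45 did not pass (edgeR adjusted p = 0.0538 and 0.0955). Hoxb3 passed there, at -2.50 (edgeR adjusted p = 0.0309).

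Transcription factors outside the lists were also called in both directions. The endothelial factor Gata3 rose by 0.84 (edgeR adjusted p = 0.0304), the LIM-only factor Lmo2 by 0.66 (edgeR adjusted p = 0.00176) and Nfib by 0.46 (edgeR adjusted p = 0.009). Epas1, the hypoxia-inducible factor of endothelium, fell by 0.51 (edgeR adjusted p = 0.00928) and Nkx2-3 by 1.69 (edgeR adjusted p = 0.0123) on the log2 scale. Without ECKO 2, 0 of these 5 passed, and Gata3 lost its call in all 4 fits that left out 1 library. Lmo2 was at 1147, 991, 1668 and 862 CPM in the members and 745, 655, 771 and 676 CPM in the other EC, with no overlap between the groups. All 5 were named after their values were seen.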
